A study of Mus musculus with 6 samples.

Results

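Interleukins are secreted signals of immune and epithelial cells, and the genes described here are all those whose mouse symbol is Il followed by a digit. Of the 20263 genes that the array measured by name, 82 fulfilled that rule. They comprise 36 ligands, 37 receptor subunits, 6 antagonists or decoys, 2 enzymes (Il4i1 and Il4i1b) and 1 antisense transcript (Il1bos). Il11ra2 and Il12b were not analysed here. A gene with several probe sets, as 14 of the 82 had, was represented by its brightest one.

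The tissue was the regenerating prostate of 10-week-old mice. Both groups had been castrated at 8 weeks of age, had received a testosterone pellet under the skin 2 weeks later and were killed after 3 days of testosterone. RNA came from the ventral and dorsolateral lobes of 1 mouse per array, and the groups were 3 Gli1-/- mice, called mutants here, and 3 wild-type mice. Gli1 is a transcription factor and target of Hedgehog signalling. No source used here names the strain or says what the Gli1 allele removes. The Gli1 probe set read 6.34, 6.27 and 6.29 in the mutants and 6.28, 6.48 and 6.51 in wild type, on the log2 intensity scale, so it gave no check of the genotype labels. Whole lobes mix epithelium, stroma and immune cells, and in such RNA fewer cells of a type and less RNA per cell cannot be told apart.

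Interleukin signals work in families. IL-1 family ligands bind a receptor and an accessory chain and signal through the adaptor Myd88 to NF-kB, and decoy receptors, binding proteins and a receptor antagonist restrain them. Ligands of the common gamma chain, IL-6, IL-12 and IL-10 families act through JAK kinases and STAT factors, with receptor chains shared between ligands, and IL-17 family ligands act through their own receptors on epithelium and stroma. In the prostate, as in other glands, epithelial cells and stromal cells carry receptors for many of these signals, while most of the ligands are known as products of activated immune cells.

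Of the 82 genes 0 passed the test over all genes (limma, Benjamini-Hochberg adjusted p under 0.05), where 4 of 20263 genes (0.0197%) did, 2 higher (0.00987%) and 2 lower (0.00987%) in the mutants. The lowest adjusted p among the 82 was 0.135, for Il4ra. An unadjusted p under 0.05 was found for 12 of them, all higher in the mutants, which is 14.6% of the members, where 10.5% of all genes had such a p, 5.93% higher and 4.58% lower. In 15 members (18.3%) all 3 mutants lay above all 3 wild-type mice, against 8.34% of all genes, and in 3 members (3.66%) all 3 lay below, against 6.01%. The median log2 difference, Gli1-/- minus wild type throughout, was 0.06 over the 82 and -0.005 over all genes, and 54 of the 82 were positive (65.9%, against 48.5% of all genes). With each gene centred on its mean, the member median was 0.012, 0.051 and 0.031 in mutants 1 to 3. In wild-type mice 1 to 3 it was -0.138, -0.035 and 0.061, so the groups overlapped and wild-type mouse 3 was the highest. That mouse held the highest value in 27 members, and mutant 2 in 24. Fewer mice make separation of groups easier for every gene. Without wild-type mouse 3 the median was 0.14 and 30 members lay above, where 18.4% of all genes did. Without wild-type mouse 1 the median was 0.03 and 13 members lay below, where 19.9% of all genes did. The number lying below was also 9 without mutant 2 (17.0% of all genes) and 5 without mutant 3 (8.73% of all genes).

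**Figure D1:**
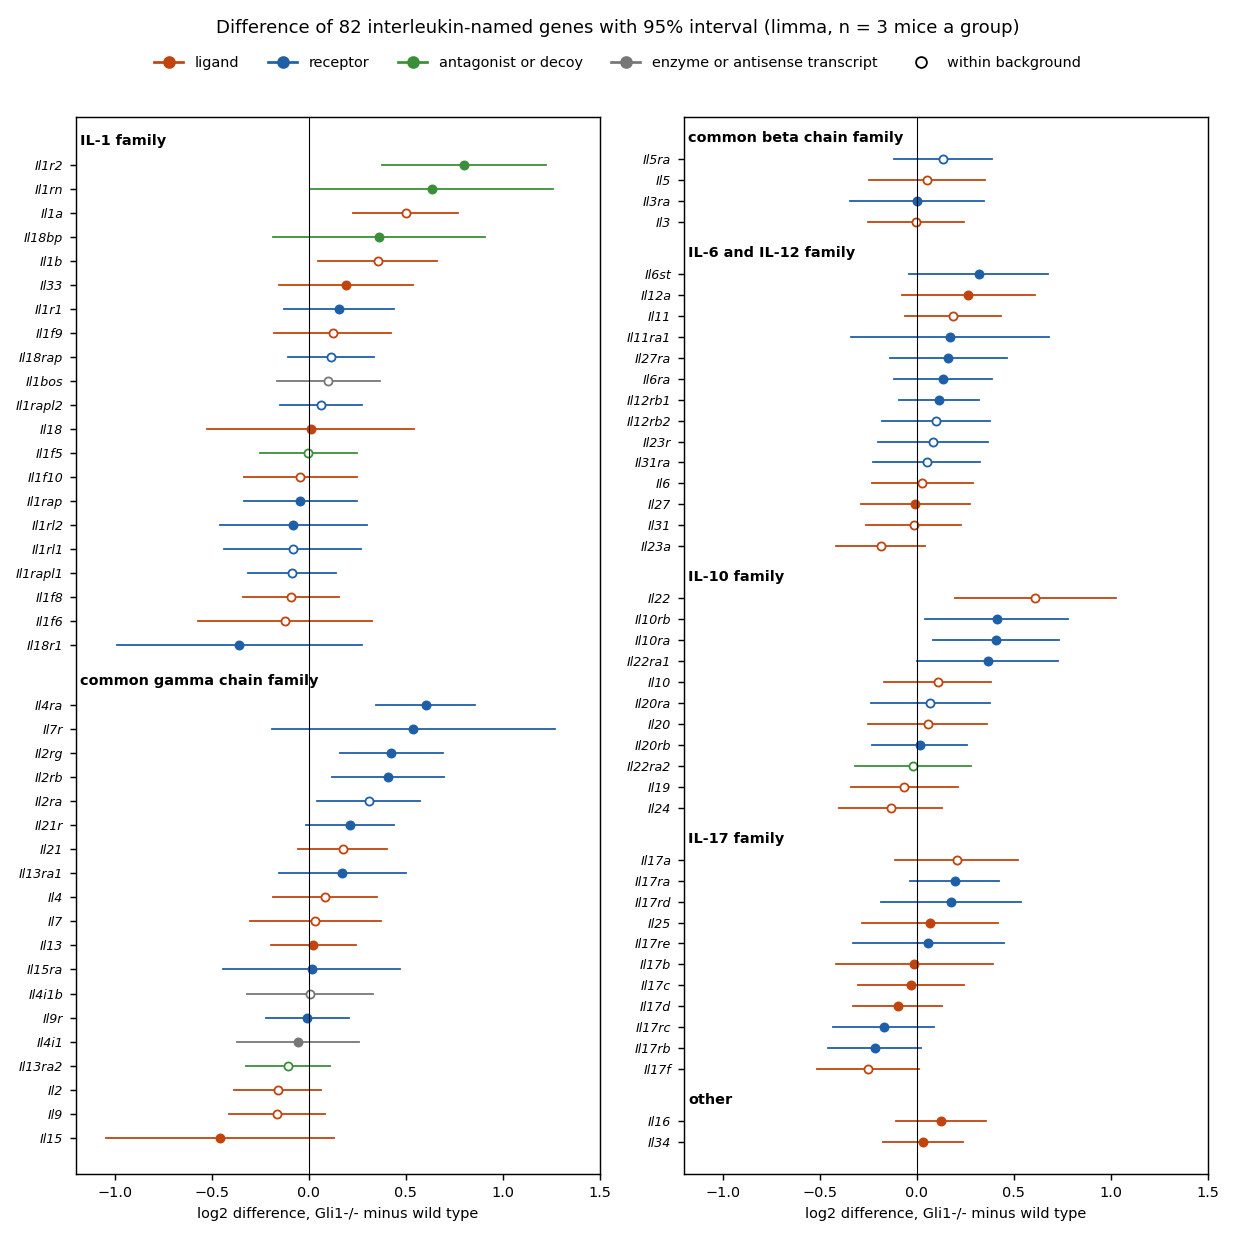
Log2 difference, Gli1-/- minus wild type, of each of the 82 genes (points) with its 95% interval from limma (lines), grouped by cytokine family and coloured by role, with open points for genes within the array's background. Il1r2 has the highest value at 0.80 and Il15 the lowest at -0.46, and most intervals include 0.

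More of the receptors than of the ligands stood above the array's background, which was taken as the 95th percentile (6.08 on the log2 scale) of 1242 olfactory and vomeronasal receptor genes, which are known as products of sensory neurons of the nose. A gene counted as above it when its mean passed 6.08 in either group. By this measure 12 of 36 ligands (33.3%) and 27 of 37 receptor subunits (73.0%) stood above, and 68.3% of all genes did. Probe sets differ in brightness for reasons of their own, so the count is a rough one and no order of levels between genes is read from it. The median difference was 0.11 over the receptors, of which 29 were positive, and 0.03 over the ligands, of which 20 were positive. Near background, fold differences on arrays are compressed.

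**Figure D2:**
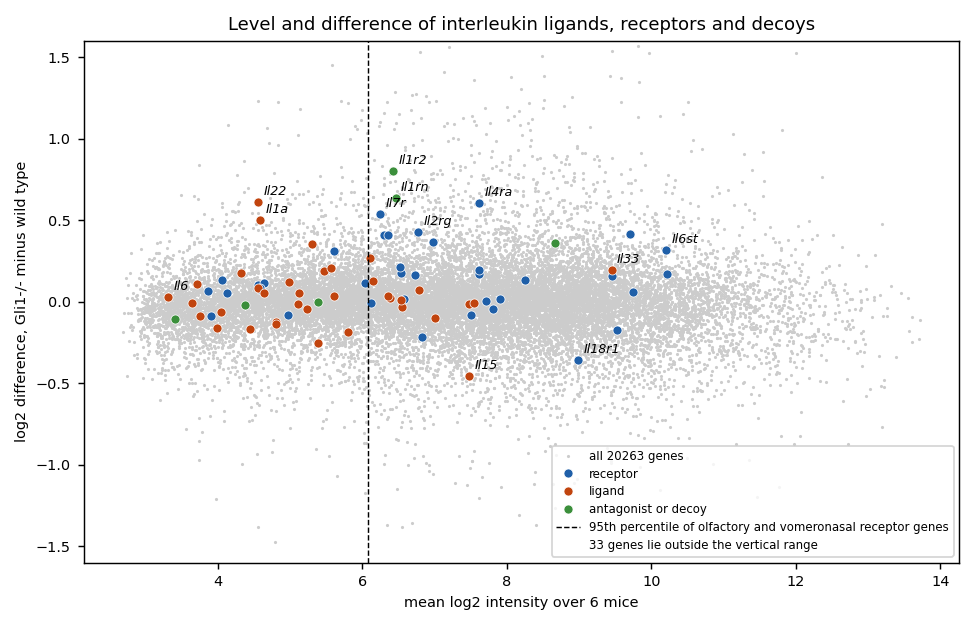
Mean log2 intensity over the 6 mice (horizontal) against the log2 difference, Gli1-/- minus wild type (vertical), for all genes (grey) and for interleukin receptors, ligands and decoys (coloured). The dashed line marks the background level of 6.08, with Il1a, Il22 and Il6 to its left and Il4ra, Il1r2 and Il15 to its right.

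The promoters of the 4 members with the smallest unadjusted p are shown because these genes were higher in all 3 mutants. Each runs from 250 bases before to 50 bases after the start given in the RefSeq promoter table (GRCm38.p6), 5′ to 3′ on the gene's strand, and capitals mark matches to the motifs searched on both strands. These were GACCACCCA (GLI), TTCNNNGAA (STAT), the NF-kB consensus, TGANTCA (AP-1), GAGGAAGT (PU.1) and TTGCNNAA (C/EBP). The first lies at chr7:125552021-125552320 (+), the second at chr1:40085843-40086142 (+), the third at chr2:129309923-129310222 (-) and the last at chrX:101268206-101268505 (-). For Il1r2 and Il1a that start lies inside the annotated gene, downstream of its outermost end, and the sequence before that end is not shown.
Il4ra: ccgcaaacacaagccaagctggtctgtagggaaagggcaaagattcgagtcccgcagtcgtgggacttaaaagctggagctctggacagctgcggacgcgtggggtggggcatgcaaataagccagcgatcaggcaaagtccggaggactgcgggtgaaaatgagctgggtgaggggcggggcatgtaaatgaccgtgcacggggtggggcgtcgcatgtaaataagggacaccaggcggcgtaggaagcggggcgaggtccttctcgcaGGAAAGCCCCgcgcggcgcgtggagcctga
Il1r2: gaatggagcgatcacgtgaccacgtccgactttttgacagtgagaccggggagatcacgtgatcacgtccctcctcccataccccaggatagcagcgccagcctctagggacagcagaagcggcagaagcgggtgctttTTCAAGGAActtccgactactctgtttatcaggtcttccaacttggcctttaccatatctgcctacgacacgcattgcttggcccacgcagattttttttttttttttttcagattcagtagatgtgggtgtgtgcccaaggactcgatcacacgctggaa
Il1a: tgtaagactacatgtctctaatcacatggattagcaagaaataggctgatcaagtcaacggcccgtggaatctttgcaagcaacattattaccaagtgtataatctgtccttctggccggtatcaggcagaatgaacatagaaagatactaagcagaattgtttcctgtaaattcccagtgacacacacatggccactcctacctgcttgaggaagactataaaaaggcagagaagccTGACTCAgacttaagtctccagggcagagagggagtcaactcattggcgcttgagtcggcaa
Il2rg: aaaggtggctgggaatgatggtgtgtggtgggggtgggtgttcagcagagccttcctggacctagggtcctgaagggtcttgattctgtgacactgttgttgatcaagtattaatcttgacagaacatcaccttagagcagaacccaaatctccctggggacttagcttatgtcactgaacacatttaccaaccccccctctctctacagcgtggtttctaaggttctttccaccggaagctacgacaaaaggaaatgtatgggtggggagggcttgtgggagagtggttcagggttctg
Il4ra held 1 NF-kB match, GGAAAGCCCC, starting 21 bases into the transcript. Il1r2 held 1 STAT match, TTCAAGGAA, whose first base lies at -111. Il1a held 1 AP-1 match, TGACTCA, whose first base lies at -12, and the Il2rg window held no match. Among 32851 mouse promoters of this length the NF-kB consensus occurred in 4.51%, the STAT letters in 8.30% and the AP-1 letters in 7.81%. Among the 80 promoters found for 65 of the 82 members the counts were 7 (8.75%), 11 (13.8%) and 14 (17.5%). GACCACCCA occurred in 0 of those 80 and in 0.25% of all promoters. The PU.1 letters occurred in 2 of the 80 (2.5%) and in 3.2% of all promoters. The C/EBP letters occurred in 15 of the 80 (18.75%) and in 10.8% of all promoters. Several of the 80 belong to the same gene, and the differences in share were not tested. A match is a run of letters, not a bound site.

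Of 9 receptors of the common gamma chain family 5 were higher in all 3 mutants without overlap (55.6%, against 8.34% of all genes). In this set 0 were lower, against 6.01% of all genes (median 0.31). Il4ra, the chain that binds IL-4 and is shared with the IL-13 receptor, read 8.04, 7.80 and 7.89 in the mutants and 7.21, 7.44 and 7.29 in wild type. Every mutant lay above every wild-type mouse. The difference was 0.60 (SE 0.11, 95% interval 0.35 to 0.86), a 1.52-fold higher intensity (limma adjusted p = 0.135), and it lay between 0.54 and 0.66 with each mouse left out. Il2rg, the common gamma chain itself, read 6.84, 7.12 and 7.0 in the mutants and 6.45, 6.69 and 6.53 in wild type, again without overlap (0.43, SE 0.11, adjusted p = 0.266). Il2rb, the signalling chain shared by the IL-2 and IL-15 receptors, read 6.49, 6.79 and 6.41 in the mutants and 6.18, 6.22 and 6.06 in wild type (0.41, SE 0.12, adjusted p = 0.316). The groups did not overlap, and mutant 2 held the highest value. Il2ra, the chain that gives the IL-2 receptor its high affinity, read 5.68, 5.96 and 5.65 in the mutants and 5.51, 5.48 and 5.38 in wild type, within background (0.31, SE 0.11, adjusted p = 0.417). For Il21r, the IL-21 receptor, the values were 6.56, 6.67 and 6.66 in the mutants and 6.31, 6.42 and 6.52 in wild type. That is a separation by a narrow margin (0.21, SE 0.10, adjusted p = 0.509).

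In the rest of this family the groups overlapped or the difference was small. Il7r, the IL-7 receptor of lymphocytes, read 7.32, 6.14 and 6.06 in the mutants and 6.08, 6.08 and 5.75 in wild type. Mutant 1 alone stood high, and the difference of 0.54 (SE 0.32, adjusted p = 0.6) was 0.13 without it. Il13ra1, which pairs with Il4ra to form the receptor for IL-4 and IL-13 on non-immune cells, read 10.13, 10.46 and 10.29 in the mutants and 9.95, 10.36 and 10.06 in wild type (0.17, SE 0.14, adjusted p = 0.733, 0.08 without wild-type mouse 1 and 0.09 without mutant 2), so the partner's groups overlapped. Among the 7 ligands counted in the family only Il13 and Il15 stood above background. Il13 and Il13ra1 are counted here for the Il4ra chain shared with IL-4, not as users of the common gamma chain. Il13, a type 2 cytokine, differed by 0.02 (SE 0.10, adjusted p = 0.969), and Il4, which was within background, by 0.08 (SE 0.12, adjusted p = 0.871). Il15, which sustains natural killer and memory T cells, read 7.14, 7.64 and 6.96 in the mutants and 7.18, 7.95 and 7.98 in wild type. Its groups overlapped because wild-type mouse 1 lay with the mutants (-0.46, SE 0.25, adjusted p = 0.585; -0.72 without that mouse). Il21 (0.17, SE 0.10) was higher and Il2 (-0.16, SE 0.10) lower in all 3 mutants, both within background (adjusted p = 0.59 and 0.612). Both margins were narrow, and the Il2 groups overlapped after median centring.

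**Figure D3:**
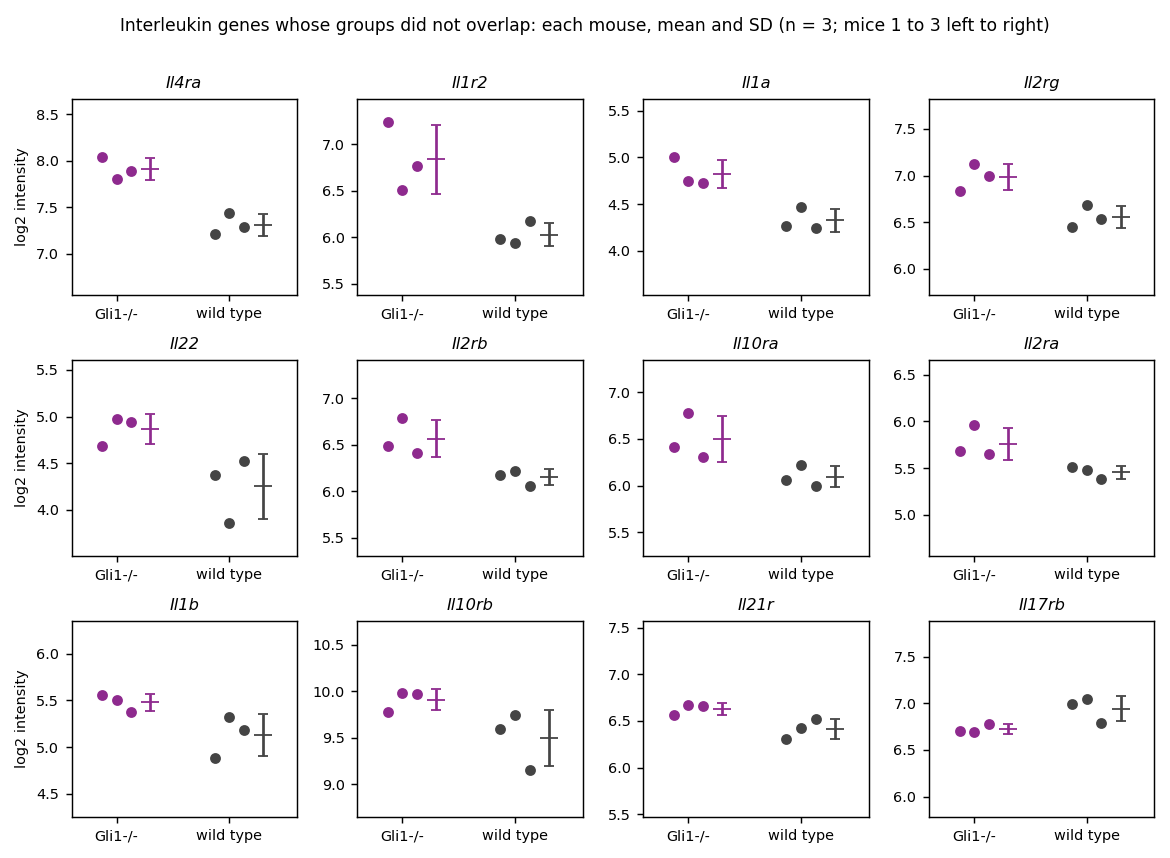
Log2 intensity of each mouse (points, mice 1 to 3 from left to right) with the group mean and SD (n = 3), Gli1-/- left and wild type right, for the 12 interleukin genes with the smallest unadjusted p among those whose groups did not overlap. All panels span the same range of log2 units, and 11 of the 12 genes are higher in the mutants, while Il17rb is lower.

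Within the IL-1 family the decoy receptor and both classical ligands were higher in all 3 mutants, while the groups overlapped for the antagonist and the signalling receptor. Il1r2, a decoy receptor that binds IL-1 without signalling, read 7.24, 6.51 and 6.76 in the mutants and 5.98, 5.94 and 6.17 in wild type. The groups did not overlap, with mutant 1 the highest (0.80, SE 0.18, 95% interval 0.38 to 1.22, 1.74-fold, limma adjusted p = 0.221). Il1a, the cell-associated IL-1 alpha, read 5.0, 4.75 and 4.73 in the mutants and 4.27, 4.47 and 4.24 in wild type, also without overlap (0.50, SE 0.12, adjusted p = 0.221). Il1b, the secreted IL-1 beta, read 5.56, 5.50 and 5.38 in the mutants and 4.88, 5.32 and 5.18 in wild type, separated by a small gap (0.36, SE 0.13, adjusted p = 0.419, 0.23 without wild-type mouse 1). Both ligand genes lay within background in both groups.

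Il1rn encodes the receptor antagonist. It read 7.39, 6.21 and 6.74 in the mutants and 5.96, 6.28 and 6.20 in wild type, so mutant 2 lay among the wild-type mice (0.63, SE 0.27, adjusted p = 0.469). Without mutant 1 the Il1rn difference was 0.33 and without mutant 2 it was 0.92. Its 3 probe sets differed by 0.54 to 0.80, and in 1 of them the groups did not overlap. Il1r1, the signalling receptor, read 9.57, 9.60 and 9.44 in the mutants and 9.44, 9.54 and 9.16 in wild type (0.16, SE 0.12, 95% interval -0.13 to 0.44, adjusted p = 0.72, 0.045 without wild-type mouse 3). Its accessory chain Il1rap read 7.82, 7.74 and 7.82 in the mutants and 8.06, 7.81 and 7.63 in wild type (-0.04, SE 0.13, adjusted p = 0.954), and its direction was turned without wild-type mouse 1 (0.07).

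The other axes of the IL-1 family showed overlapping groups. Il33, an alarmin stored in the nuclei of barrier and stromal cells, read 9.31, 9.82 and 9.51 in the mutants and 9.20, 9.48 and 9.38 in wild type (0.19, SE 0.15, adjusted p = 0.71, 0.06 without mutant 2). Its receptor Il1rl1 lay within background at 5.02, 4.88 and 4.89 in the mutants and 4.74, 4.97 and 5.32 in wild type (-0.08, SE 0.15, adjusted p = 0.918; 0.07 without wild-type mouse 3). Il18, an epithelial cytokine that needs cleavage to act, read 6.37, 6.92 and 6.33 in the mutants and 6.08, 6.68 and 6.82 in wild type. Its difference of 0.01 (SE 0.23, adjusted p = 0.995) has a 95% interval from -0.52 to 0.54, and its sign depended on single mice. Il18bp, which neutralises IL-18, read 8.42, 9.41 and 8.72 in the mutants and 8.39, 8.63 and 8.45 in wild type (0.36, SE 0.24, adjusted p = 0.646). Mutant 2 was the high one, and the difference was 0.08 without it. Il18r1, the IL-18 binding receptor chain, read 8.17, 9.15 and 9.11 in the mutants and 8.85, 9.39 and 9.26 in wild type (-0.36, SE 0.27, adjusted p = 0.704). Here mutant 1 alone stood low, in each of 3 probe sets, and the difference was -0.04 without it. The partner chain Il18rap lay within background (4.70, 4.74 and 4.66 in the mutants, 4.53, 4.52 and 4.70 in wild type, difference 0.11, SE 0.10, adjusted p = 0.741). The ligands Il1f6, Il1f8, Il1f9 and Il1f10 and the antagonist Il1f5, known from skin and other epithelia, were all within background with overlapping groups.

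All 5 IL-10 family receptors had positive differences, with a median of 0.37, and 0 passed the test. Il10ra, the IL-10 binding chain of leukocytes, read 6.41, 6.78 and 6.31 in the mutants and 6.06, 6.22 and 6.00 in wild type. The groups did not overlap, and mutant 2 was the highest (0.41, SE 0.14, limma adjusted p = 0.382, 0.27 without mutant 2). Il10rb, the broadly expressed partner chain shared by several IL-10 family receptors and the interferon lambda receptor, read 9.78, 9.98 and 9.97 in the mutants and 9.59, 9.74 and 9.16 in wild type. Wild-type mouse 3 was the low one, and the difference of 0.41 (SE 0.16, adjusted p = 0.431) was 0.24 without it. Il22ra1, the epithelial chain of the IL-22 receptor, read 7.30, 6.91 and 7.29 in the mutants and 6.99, 6.87 and 6.55 in wild type, with mutant 2 inside the wild-type range (0.37, SE 0.16, adjusted p = 0.474, 0.24 without wild-type mouse 3).

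All 5 ligands of the IL-10 family lay within background. Among them Il22, a cytokine of lymphocytes that acts on epithelium, read 4.68, 4.97 and 4.94 in the mutants and 4.37, 3.86 and 4.52 in wild type. The groups did not overlap (0.61, SE 0.18, adjusted p = 0.299), and the difference was 0.42 without wild-type mouse 2. A close paralog, Iltifb, differed by -0.24 (SE 0.20, adjusted p = 0.728), and probes can be shared between such copies, so the Il22 value is uncertain.

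In the IL-6 and IL-12 families 5 of 8 receptor chains and 2 of 6 ligands stood above background. Il6st, the gp130 chain shared by most IL-6 family receptors, read 10.58, 10.06 and 10.44 in the mutants and 10.19, 10.04 and 9.90 in wild type. Mutant 2 lay inside the wild-type range (0.32, SE 0.15, limma adjusted p = 0.528, 0.21 without mutant 1). Il6ra, which binds IL-6, read 8.44, 8.19 and 8.30 in the mutants and 8.27, 8.06 and 8.21 in wild type (0.13, SE 0.11, adjusted p = 0.728, 0.07 without mutant 1 and 0.08 without wild-type mouse 2). Il6 itself read 3.24, 3.28 and 3.44 in the mutants and 3.39, 3.14 and 3.36 in wild type, within background, and no difference was detectable at that level (0.03, SE 0.11, adjusted p = 0.97). All 8 receptor chains were positive, between 0.05 and 0.32. Of the ligands, Il12a, a subunit of IL-12 and IL-35, differed by 0.27 (SE 0.15, adjusted p = 0.588) and Il23a, a subunit of IL-23, by -0.19 (SE 0.10, adjusted p = 0.565). Il23a was lower and the receptor chain Il12rb1 higher (0.11, SE 0.09, adjusted p = 0.716) in all 3 mutants, by narrow margins. The nearest mutant and wild-type values were 5.77 and 5.80 for Il23a and 6.07 and 6.05 for Il12rb1.

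IL-17 family genes had a median difference of -0.01, with 5 of 11 positive. Il17rb, the receptor of IL-25 and IL-17B, read 6.70, 6.69 and 6.78 in the mutants and 6.99, 7.05 and 6.79 in wild type. The groups were barely separate (-0.22, SE 0.10, limma adjusted p = 0.522), because mutant 3 and wild-type mouse 3 were nearly equal. Il17ra, the subunit common to the IL-17 receptors, was barely higher in all 3 mutants (0.20, SE 0.10, adjusted p = 0.551). Its lowest mutant read 7.66 and its highest wild-type mouse 7.65. After quantile normalization or median centring the groups of Il17ra and Il17rb overlapped. Il17rc, its partner for IL-17A and IL-17F, read 9.38, 9.61 and 9.29 in the mutants and 9.53, 9.60 and 9.67 in wild type (-0.17, SE 0.11, adjusted p = 0.65). For Il17re, the epithelial receptor of IL-17C, the values were 9.94, 9.54 and 9.87 in the mutants and 9.97, 9.77 and 9.43 in wild type, fully overlapping (0.06, SE 0.17, adjusted p = 0.954). The ligands Il17a (0.21, SE 0.14, adjusted p = 0.65) and Il17f (-0.25, SE 0.11, adjusted p = 0.493), both within background, pointed in opposite directions. Outside these families Il16, a ligand of CD4, was higher in all 3 mutants by a small amount (0.13, SE 0.10, adjusted p = 0.722). Its lowest mutant read 6.16 and its highest wild-type mouse 6.15. The 4 members of the common beta chain family lay between -0.01 and 0.14 with overlapping groups.

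**Figure D4:**
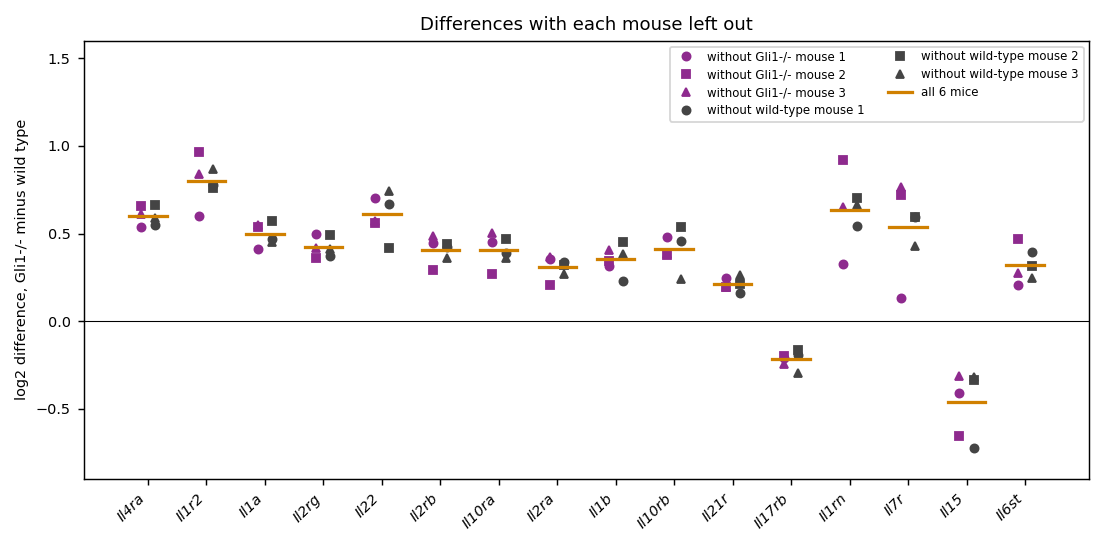
Log2 difference, Gli1-/- minus wild type, of 16 interleukin genes with all 6 mice (bars) and with each mouse left out in turn (points, coloured by the group that lost a mouse). Il4ra stays between 0.54 and 0.66, while Il1rn and Il7r are at 0.33 and 0.13 without mutant 1.

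Signalling partners named otherwise were examined through lists chosen with earlier results of these data known, and 0 of their genes passed over all genes. Of 28 cytokines and receptors related to interleukins 5 had all mutants above all wild-type mice (17.9%, against 8.34% of all genes). In this list 0 had all mutants below, against 6.01% of all genes (median 0.09). Csf2rb, the beta chain shared by the IL-3, IL-5 and GM-CSF receptors, read 6.95, 6.55 and 6.57 in the mutants and 5.86, 6.06 and 5.65 in wild type (0.83, SE 0.15, limma adjusted p = 0.135). Its near-identical copy Csf2rb2 differed by 0.61 (SE 0.13, adjusted p = 0.221), and probes can be shared between them. The oncostatin M receptor Osmr, which signals with gp130, averaged 8.72 in the mutants and 7.63 in wild type (1.08, SE 0.21, adjusted p = 0.156), and the macrophage colony-stimulating factor receptor Csf1r differed by 0.39 (SE 0.15, adjusted p = 0.426).

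Over all genes 8.34% lay above and 6.01% below without overlap. Of the 22 JAK, STAT and SOCS genes 7 (31.8%) lay above and 2 (9.09%) below without overlap (median 0.16). Among those above were Stat2 (0.62, SE 0.17, limma adjusted p = 0.265), Stat3 (0.54, SE 0.16, adjusted p = 0.311) and Jak3, the kinase bound to the common gamma chain (0.39, SE 0.11, adjusted p = 0.275). Among 25 genes of IL-1 receptor and NF-kB signalling 9 (36.0%) lay above and 1 (4.0%) below (median 0.18). The adaptor Myd88 averaged 10.20 in the mutants and 9.76 in wild type (0.45, SE 0.11, adjusted p = 0.249), and Nfkb2, Nfkbia and Rel differed by 0.44, 0.28 and 0.42. Of 10 genes that process IL-1 family cytokines 1 lay above without overlap (10.0%, against 8.34% of all genes, median 0.12). That gene was Nlrp3, which was within background. Casp1, the enzyme that cleaves IL-1 beta and IL-18, was within background with overlapping groups (0.46, SE 0.18, adjusted p = 0.436). The highest and lowest differences of this list pointed in opposite directions. They were those of Casp4 (1.271, SE 0.552, adjusted p = 0.48) and Aim2 (-1.002, SE 0.444, adjusted p = 0.49). Both genes stood above background, and their groups overlapped.

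Genes known as outputs of interleukin signals were examined in the same way. Some genes stand in several lists, so the counts of the lists are not separate from each other. Mrc1 below and Csf1r above, for instance, are also among the macrophage markers. All 12 genes of the IL-6 and STAT3 list were positive (median 0.67, against -0.005 over all genes). Of them 8 lay above without overlap (66.7%), where 8.34% of all genes lay above and 6.01% below. In this list 3 genes were within background, and 7 of the other 9 lay above without overlap. Bcl3, Hp, Timp1 and Lbp differed by 0.66, 1.09, 1.12 and 0.68 (limma adjusted p = 0.105, 0.221, 0.221 and 0.221). Mutant 2 had the highest mean of this list, 1.39 above the gene means, against 0.07 and -0.02 in mutants 1 and 3 and -0.57, -0.52 and -0.36 in wild type, and the median was 0.29 without mutant 2. In the IL-17 list of 10 genes 3 (30.0%) lay above, and 2 after quantile normalization or median centring. For Cebpd, shared with the IL-6 and STAT3 list, the lowest mutant and the highest wild-type mouse both read 6.21. For Zc3h12a both read 6.98, so these 2 genes were separate by less than the rounding. An unadjusted limma p under 0.05 was found for 1 of the 10, Lcn2. Lcn2 of that list, a siderophore-binding protein, averaged 12.58 in the mutants and 10.21 in wild type (2.38, SE 0.37, adjusted p = 0.101). The IL-4 and IL-13 list was mixed, with 4 of 10 (40.0%) above and 2 (20.0%) below (median 0.16, and -0.01 without mutant 1). In it Clca1, a secreted regulator of mucus (1.41, SE 0.19, adjusted p = 0.0911), Mrc1, the macrophage mannose receptor (0.57), and Arg1 (0.55) were higher in all 3 mutants, and the eosinophil chemokine Ccl11 was lower in all 3 (-1.01, SE 0.26, adjusted p = 0.253).

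**Figure D5:**
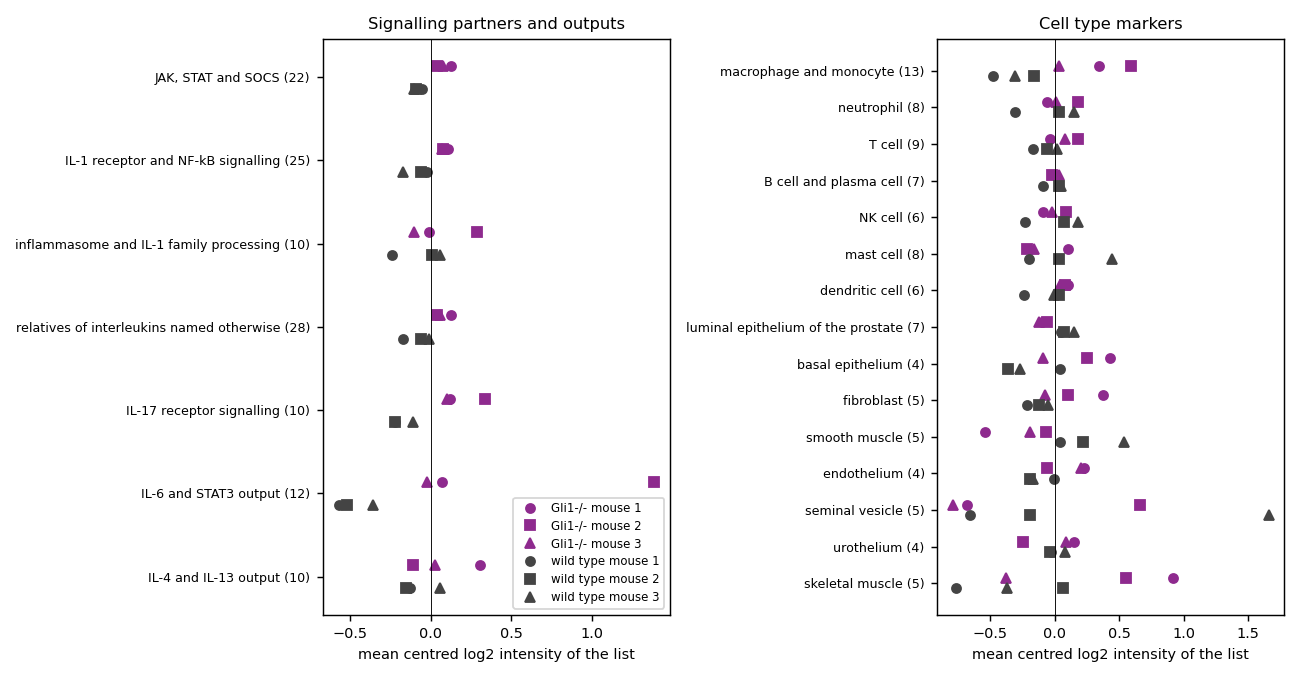
Mean centred log2 intensity of each gene list in each mouse (points, with the symbol giving the mouse number), Gli1-/- drawn over wild type in each row and the number of genes in brackets, for signalling lists (left) and cell type markers (right). Mutant 2 stands at 1.39 in the IL-6 and STAT3 list, and the macrophage rows do not overlap.

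Markers of immune cells were set beside these receptors. Of 14 macrophage and monocyte markers 13 were measured, all above background (median 0.57). Without overlap 10 lay above (76.9%, against 8.34% of all genes). Of these markers 0 passed the test over all genes (lowest limma adjusted p = 0.101). Their summed intensity was 12.51 to 13.14 in the mutants and 12.09 to 12.66 in wild type, on the log2 scale, so the sums overlapped. The mean centred values were 0.34, 0.59 and 0.03 in mutants 1 to 3 and -0.48, -0.16 and -0.31 in wild-type mice 1 to 3. Mutant 2, the highest there, was also the highest mouse for Il2rg, Il2rb, Il2ra and Il10ra, whereas Il4ra, Il1r2, Il1a and Il1rn were highest in mutant 1. T cell markers had a summed intensity of 9.53 to 9.77 in the mutants and 9.33 to 9.55 in wild type. Cd3d, Cd4 and Cd8a were within background. Of the 9 T cell markers 2 lay above without overlap (22.2%, against 8.34% of all genes). Their median was 0.05, 3 of 9 were negative, and 0 passed. Neutrophil markers spanned 8.72 to 8.87 in the mutants and 8.55 to 8.98 in wild type, with S100a8 and S100a9 among the 6 of 8 within background. The part of cell numbers in the receptor differences was not tested.

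Natural killer markers (8.04 to 8.26 in the mutants, 7.91 to 8.41 in wild type) and mast cell markers (9.39 to 9.81 in the mutants, 9.43 to 10.41 in wild type) overlapped between the groups. So did those of B and plasma cells (8.70 to 8.74 in the mutants, 8.60 to 8.79 in wild type). Dendritic cell markers lay at 8.86 to 8.96 in the mutants and 8.58 to 8.86 in wild type, with Xcr1, Clec9a and Flt3 within background. All 7 luminal prostate markers stood above background, with sums of 14.82 to 14.92 in the mutants and 15.07 to 15.27 in wild type. Such sums weigh the brightest genes most, among them Tgm4 (-0.522) and Pbsn (-0.875). The median of the luminal list was -0.08, with 3 of 7 positive, Krt8 (0.217) among them. Smooth muscle sums were 12.87 to 13.35 in the mutants and 13.42 to 13.88 in wild type. The median of that list was -0.52, with 0 of 5 positive. Without overlap 3 of the 5 lay below (60.0%, against 6.01% of all genes), and 0 passed the test over all genes. Basal epithelial markers had a median of 0.42 with 4 of 4 positive, fibroblast markers 0.36 with 4 of 5 positive, and endothelial markers 0.26 with 4 of 4 positive. In these 3 lists 0 genes passed. Seminal vesicle markers, with Svs3a, Svs4 and Svs6 within background, spanned 6.98 to 9.80 in the mutants and 7.06 to 10.79 in wild type, and skeletal muscle markers 10.47 to 11.56 in the mutants and 10.28 to 10.90 in wild type. The part of these tissues in the interleukin values was not tested.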

How the data were processed

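The authors deposited log2 intensities from a 1-colour array, 1 column per mouse. Per the submitters' processing notes RMA and Partek were used (versions not given), and no source used here states the array model or how probe sets were defined. The 32025 probe sets were named through RefSeq accessions (GRCm38.p6 gene table), and 25343 matched 1 gene and 6682 none. Column medians lay between 6.76 and 6.95. Limma 3.58.1 in R 4.3.3 compared Gli1-/- with wild type over all 20263 genes (lmFit and eBayes, two-sided, Benjamini-Hochberg adjustment, 6 mice, no covariate, no filter), and the procedure was tested on simulated data. RMA compresses differences of dim genes, and the number of arrays limits precision. The members and lists were chosen with earlier results of these data known. Values in every mouse are given for up to 12 members without overlap and the smallest unadjusted p, for the 8 with the highest level, and for the IL-1, IL-33, IL-18 and IL-6 sets. Up to 4 genes per list are named, and some results are not reported here. Further members were named after their values were seen. Alternatives were each mouse left out, a filter on dim genes, means of probe sets, median centring, quantile normalization, an intensity trend, array weights and a replicate block.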

Additional observations from a re-analysis of the deposited data

How the results depend on the processing

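Of 41 interleukin genes followed, 33 kept their direction under every alternative. No member passed in any alternative except array weights, where 19 passed (23.1% of all genes did) and 35 had an unadjusted p under 0.05 (39.5% of all genes). That fit gave wild-type mouse 2 a weight of 7.22 and the other wild-type mice 0.361 and 0.353, stopped before full convergence and called 4680 genes, so its calls rest mainly on 1 wild-type mouse. It turned Il13ra1 to -0.051, Il1r1 to -0.022, Il18 to -0.241 and Il13 to -0.013, and called 40 genes of the signalling lists. Quantile normalization turned Il18 to -0.024. With each mouse left out, Il18 ran from -0.213 to 0.156, Il13 from -0.027 to 0.056, Il17re from -0.088 to 0.183, Il6 from -0.052 to 0.076, Il1rap from -0.146 to 0.069 and Il1rl1 from -0.218 to 0.074. Leaving out dim genes kept 43 members, with 7 at an unadjusted p under 0.05 (12.6% of all genes) and 1 lying below without overlap (6.54%). Of the same 43 members 8 had such a p in the main fit, and 1 lay below. The unadjusted limma p of Il22ra1 was 0.0495 in the main fit and 0.0502 without dim genes. Median centring gave 5 lying below (7.79% of all genes), and the cause was not tested. With each mouse left out, 17 to 30 members lay above (11.0% to 18.4% of all genes), 3 to 13 below (8.24% to 19.9%), 9 to 14 had an unadjusted p under 0.05 (6.87% to 17.1%), and the median ran from 0.029 to 0.137. Signalling list genes called numbered 0 to 3 there, the 3 being Clca1, Lcn2 and Osmr without mutant 2. The IL-4 and IL-13 list ran from -0.007 to 0.249. The replicate block called 2 list genes, Clca1 and Lcn2 (limma adjusted p = 0.0422 and 0.0442), and 0 members, with 11 at an unadjusted p under 0.05 (13.3% of all genes). Deviations of same-numbered mice from their group means had correlations of 0.16, 0.25 and -0.15 across genes. Over all genes the block called 25, against 4 without it. Whether the numbers pair the mice cannot be told from these values. Separation of groups has no value of its own under the block, weights or trend.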

Other observations

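Cxcl15, a mouse chemokine of epithelia that once carried an interleukin name, read 8.38, 8.54 and 8.52 in the mutants and 7.45, 8.51 and 7.45 in wild type. Wild-type mouse 2 lay with the mutants, and the difference was 0.68 (SE 0.27, limma adjusted p = 0.446). The interferon lambda receptor chain Ifnlr1, which pairs with Il10rb, read 7.19, 7.12 and 7.14 in the mutants and 7.07, 7.07 and 6.93 in wild type, without overlap (0.13, SE 0.09, adjusted p = 0.677).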
